A study of Homo sapiens with 84 samples.

Results

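Kyse30 cells treated for 6 h with 1.8 nM of epidermal growth factor (EGF; the group EGFlow) were compared with untreated Kyse30 cells of the same time. The comparison held 7 libraries, 4 of EGFlow (replicates 1 to 4) and 3 of untreated cells (replicates 1, 3, and 4), taken by their labels from 84 libraries of the series, and it covered every gene that was counted. Kyse30 is a line from an esophageal squamous cell carcinoma with an amplified EGFR gene. All cells of these groups, untreated ones included, were deprived of serum before treatment and kept without it. The series also holds cells given 9 nM EGF (EGFhigh), an antibody Fc fragment (Fc), or the EpCAM ectodomain fused to Fc, alone or with EGFhigh, at 6 and 72 h, and the same treatments of FaDu cells, a hypopharyngeal carcinoma line. Each line is a single cell line, and the labels do not say whether the replicate libraries came from separate cultures, so p-values measure the spread between these libraries, which may be technical.

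EGF binds the receptor tyrosine kinase EGFR, which signals through RAS and the kinase ERK to transcription factors such as the ETS family, AP-1 (dimers of FOS and JUN proteins), and SRF, and through AKT, which keeps FOXO factors out of the nucleus. Immediate-early genes such as EGR1 and FOS are induced within minutes and are then switched off, while later genes include EGFR ligands, adhesion proteins, and genes for growth. In squamous epithelium, EGFR is known for driving proliferation and migration and for changing the keratins of wounded epidermis.

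Total counts on genes were 5321269 to 8624072 in the untreated and 6071393 to 8883849 in the EGFlow libraries. Replicate 1 libraries of both groups had fewer mitochondrial counts (6.66 to 6.96%) than the other 5 (11 to 12.9%), and reads without a unique position were 30.7 to 32.6% of EGFlow and 31.6 to 38.8% of untreated reads. Fc and EGFhigh libraries of 6 h had 7.31 and 5.99% mitochondrial counts in replicate 1 and 11.9 to 12.7% in replicates 3 and 4. EGFhigh replicate 2 had 9.85%. Replicate 1 was thus the lowest in each of these groups, and the main fit has no term for the replicate number. The part of these differences in the results was not tested. EPCAM, KRT8, and KRT18, markers of simple epithelium, had means of 227, 1462, and 2853 CPM (gene counts scaled to a common library size) in untreated cells, and of the squamous markers PERP had 611 and KRT15 51.9 CPM. KRT5 and KRT14, which define basal squamous cells, had 3.74 and 1.10 CPM. All 10 squamous markers that were listed passed the filter on low counts. Their summed level was 920 to 1346 CPM in untreated and 959 to 1281 CPM in EGFlow libraries. Of 13 markers of fibroblasts, endothelium, and immune cells, 4 passed the filter on low counts, and their summed level was 12.6 to 41.5 CPM in untreated and 15.5 to 41.5 CPM in EGFlow libraries.

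One treated library stood apart. Each library was placed between the means of the other treated and the other untreated libraries, over the genes called without it, with 0% at the opposite group and 100% at its own. EGFlow replicate 2 lay at a median of 59.6%, and 113 of 268 genes (42.2%) were nearer to the untreated cells in it. The other EGFlow libraries lay at 93.3 to 102% and the untreated libraries at 67.5 to 83.7%. No untreated library carries the number 2. EGFlow replicate 2 was kept in the main comparison. It was singled out by these same counts, and leaving it out favours calls of genes for which it lay near untreated cells. Values without it are therefore descriptions and not a separate test.

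A gene was called differentially expressed (a DEG) when edgeR's quasi-likelihood test gave an adjusted p up to 0.05 and its log2 fold change (log2FC, EGFlow minus untreated) was beyond 0.5 in size. EGFlow changed 230 of 15350 genes, which is 1.5% of those tested. Expression rose for 125 genes (0.814%) and fell for 105 (0.684%). The median log2FC was 1.14 among the genes that rose and -1.19 among those that fell, against -0.04 over all genes. All 125 genes that rose were protein-coding, with a median level of 66.3 CPM, and 94 of those that fell were, with a median of 26.6 CPM, against 12.8 CPM over all genes. Treated and untreated libraries did not overlap in CPM for 222 of the 230 genes, and for 13.7% of all genes. Without EGFlow replicate 2, 268 of 15261 genes (1.76%) were DEGs. Of the 52 genes named by rule, 7 were then no DEGs (ESRP1, ID2, ZBTB20, TTC23, UMPS, RPF1, and NOL6, adjusted p up to 0.115), nor were EZR and CENPC. Leaving out any of the other libraries left 20 to 108, the lowest number without untreated replicate 4, and all 230 genes kept their direction in each case.

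**Figure D1:**
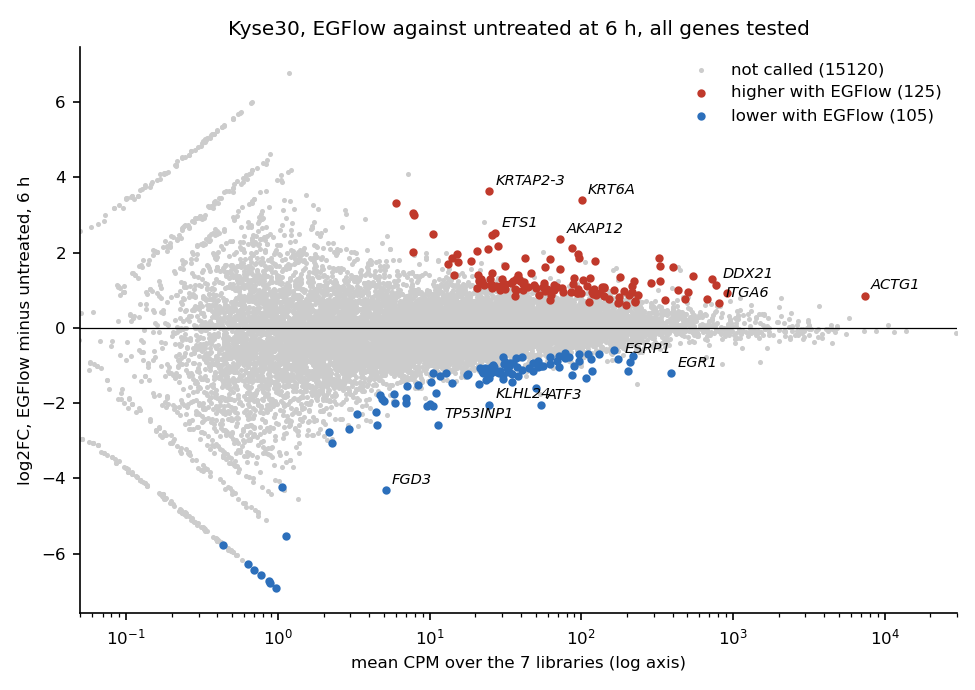
Log2FC of EGFlow minus untreated cells at 6 h (vertical axis) against mean CPM over the 7 libraries (log axis) for all 15350 genes, with 125 DEGs that were higher in red and 105 that were lower in blue. Red points reach highly expressed genes such as ACTG1, while the lowest blue points, near a log2FC of -6, are genes of about 1 CPM that had no counts in any EGFlow library.

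The strongest increases among genes with separate groups were in keratins, cell-shape regulators, and signalling genes. KRT6A, a keratin of activated and wounded epidermis, had 16.9, 11.9, and 18.7 CPM in untreated replicates 1, 3, and 4. It had 135, 115, 93.0, and 317 CPM in EGFlow replicates 1 to 4. All treated libraries were far above all untreated ones, and replicate 4 was the highest (log2FC 3.38 ± 0.67 SE, adjusted p = 0.00553, 10.4-fold). KRT6A has near-identical relatives, so part of its count may come from, or be lost to, them. KRTAP2-3, a hair keratin-associated protein gene of a family of near-identical copies, had the largest log2FC of these (3.62 ± 0.82, adjusted p = 0.0168). Its 4 treated libraries spread from 15.6 to 85.7 CPM and its untreated ones from 1.26 to 7.65 CPM. Against Fc-treated cells as the control its log2FC was 1.67 with an adjusted p of 0.228.

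ETS1, a transcription factor that ERK phosphorylates, had 9.91, 4.92, and 7.16 CPM in untreated cells and 48.2, 13.2, 41.3, and 64.1 CPM in EGFlow replicates 1 to 4. EGFlow replicate 2 was the lowest treated library yet still above every untreated one (log2FC 2.51 ± 0.47, adjusted p = 0.00521). SPHK1, the kinase that makes the lipid messenger sphingosine-1-phosphate, had 6.43, 10.1, and 4.91 CPM without and 42.8, 21.9, 39.1, and 56.4 CPM with EGFlow. It rose by a log2FC of 2.48 ± 0.51 (adjusted p = 0.00854), again with replicate 2 lowest. AKAP12, a scaffold for protein kinase A, had 14.4, 18.4, and 32.7 CPM in untreated and 74.4, 94.4, 63.9, and 212 CPM in treated libraries. Here replicate 2 was the second highest, and the gene rose by 2.35 ± 0.43 (adjusted p = 0.0049).

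MICAL2, an oxidase that takes actin filaments apart, rose 4.54-fold, from 9.43 ± 6.13 to 42.5 ± 13.2 CPM (mean ± SD, n = 3 and 4). KAZN, which encodes kazrin of the cornified envelope and desmosomes, rose 4.3-fold, from 8.32 ± 4.20 to 36.2 ± 4.06 CPM. SOCS2, a feedback inhibitor of cytokine receptors, rose 4.05-fold, from 2.82 ± 1.32 to 11.5 ± 2.62 CPM. The forkhead factor gene FOXD1 rose 4.37-fold, with 153, 48.7, 151, and 164 CPM in EGFlow replicates 1 to 4 and 19.8 to 36.1 CPM in untreated cells, so that replicate 2 stood apart from the other 3. GFOD1 rose 3.92-fold, with 68.2 CPM in EGFlow replicate 2 and 145 to 181 CPM in the other treated libraries, against 32.6 to 39.1 CPM in untreated cells. The remaining genes among the 15 with the highest log2FC were SPRR2A, SPOCD1, GLIPR1, TNFSF15 (a cytokine of the TNF family), and PAQR5, which rose 3.87-fold to 8.27-fold. Of these 15 genes, SOCS2 (log2FC 0.85, adjusted p = 0.383) and PAQR5 (1.35, adjusted p = 0.0885) lost their call with Fc-treated cells as control, as KRTAP2-3 did. When single libraries were left out, SPRR2A, TNFSF15, and SOCS2 kept their call in 2 of 7 fits, PAQR5 in 3, and KRTAP2-3 in 4. The others of the 15 kept it in 5 to 7.

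Promoters of 4 genes that rose are shown for the AP-1, E-box, and CArG motifs, which a larger share of the genes that rose held than of all genes. Sequences are RefSeq's on GRCh38.p14, from 250 bases before to 50 after the annotated start, and capitals mark the motifs that were searched on both strands.

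SPRR2A, chr1:153057463-153057762, minus strand: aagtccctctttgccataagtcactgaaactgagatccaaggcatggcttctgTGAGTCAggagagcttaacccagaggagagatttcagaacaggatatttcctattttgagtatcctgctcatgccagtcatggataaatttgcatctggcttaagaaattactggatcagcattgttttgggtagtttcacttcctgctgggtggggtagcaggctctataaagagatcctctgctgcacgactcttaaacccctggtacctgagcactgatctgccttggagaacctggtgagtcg
SPHK1, chr17:76382954-76383253, plus strand: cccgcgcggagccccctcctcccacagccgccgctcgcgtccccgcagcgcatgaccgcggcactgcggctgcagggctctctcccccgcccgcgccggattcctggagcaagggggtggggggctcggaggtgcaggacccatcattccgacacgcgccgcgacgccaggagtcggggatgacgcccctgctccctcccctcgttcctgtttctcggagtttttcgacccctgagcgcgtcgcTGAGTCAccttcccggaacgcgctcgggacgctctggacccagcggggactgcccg
AKAP12, chr6:151239717-151240016, plus strand: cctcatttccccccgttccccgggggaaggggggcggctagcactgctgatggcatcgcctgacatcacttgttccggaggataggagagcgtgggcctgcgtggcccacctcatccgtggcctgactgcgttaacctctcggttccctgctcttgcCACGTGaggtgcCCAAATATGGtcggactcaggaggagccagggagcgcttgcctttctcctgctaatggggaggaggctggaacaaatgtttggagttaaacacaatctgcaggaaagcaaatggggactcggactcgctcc
ACTG1, chr17:81512750-81513049, minus strand: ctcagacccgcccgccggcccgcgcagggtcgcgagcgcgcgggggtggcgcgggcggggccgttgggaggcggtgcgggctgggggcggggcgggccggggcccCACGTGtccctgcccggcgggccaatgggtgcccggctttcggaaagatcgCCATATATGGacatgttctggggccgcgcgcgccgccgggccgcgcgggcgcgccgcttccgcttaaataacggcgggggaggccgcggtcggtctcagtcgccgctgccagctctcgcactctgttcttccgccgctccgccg

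The capitals are the AP-1 motif TGANTCA in SPRR2A and SPHK1, and in AKAP12 and ACTG1 the E-box CACGTG followed by a CArG box, the element bound by SRF. Promoters were given for 102 of 125 genes that rose, 84 of 105 that fell, and 10322 of all tested genes. AP-1 motifs were in 14 promoters of genes that rose (13.7%), in 5 of genes that fell (5.95%), and in 4.81% of all. CArG boxes were in 5 (4.9%), 1 (1.19%), and 1.07%, and E-boxes in 18 (17.6%), 7 (8.33%), and 9.97%. The ETS motif CCGGAAGT was in 7.84, 4.76, and 8.8%, and the CRE motif TGACGTCA in 1.96, 1.19, and 3.27%. These shares are descriptions of short windows and say nothing of binding.

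Among EGF-family receptors, ligands, and the sheddases that release ligands, no gene was a DEG in edgeR with all libraries, and EGFR, HBEGF, and AREG were DEGs without EGFlow replicate 2. With all libraries 0 of 13 tested members were called, 6 had an unadjusted p under 0.05, and DESeq2 called 2. EGFR itself had 1717, 1555, and 1478 CPM in untreated cells and 2451, 1727, 2517, and 2658 CPM in EGFlow replicates 1 to 4. Replicate 2 was barely above the highest untreated library, and the log2FC was 0.56 ± 0.17 (adjusted p = 0.0887). Without that library EGFR was a DEG with a log2FC of 0.69 ± 0.18 (adjusted p = 0.0307).

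HBEGF, a ligand shed from the cell surface, had 23.8, 16.3, and 20.8 CPM in untreated cells. It had 115, 14.8, 85.5, and 115 CPM in EGFlow replicates 1 to 4, so replicate 2 was below every untreated library while the other 3 were far above (log2FC 2.02 ± 0.64, adjusted p = 0.103). The ligand amphiregulin (AREG) had 148, 169, and 326 CPM without and 679, 223, 507, and 1097 CPM with EGFlow (log2FC 1.55 ± 0.43, adjusted p = 0.055). Without replicate 2, both were DEGs, with log2FC of 2.39 ± 0.62 for HBEGF (adjusted p = 0.0359) and 1.84 ± 0.43 for AREG (adjusted p = 0.0159). Since that library was singled out by these same counts, the calls made without it are descriptions. EREG and TGFA, further ligands, had log2FC of 0.88 and 0.97 with adjusted p of 0.211 and 0.218. The partner receptors ERBB2 and ERBB3 had log2FC of -0.60 and -0.88 with adjusted p of 0.416 and 0.11.

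**Figure D2:**
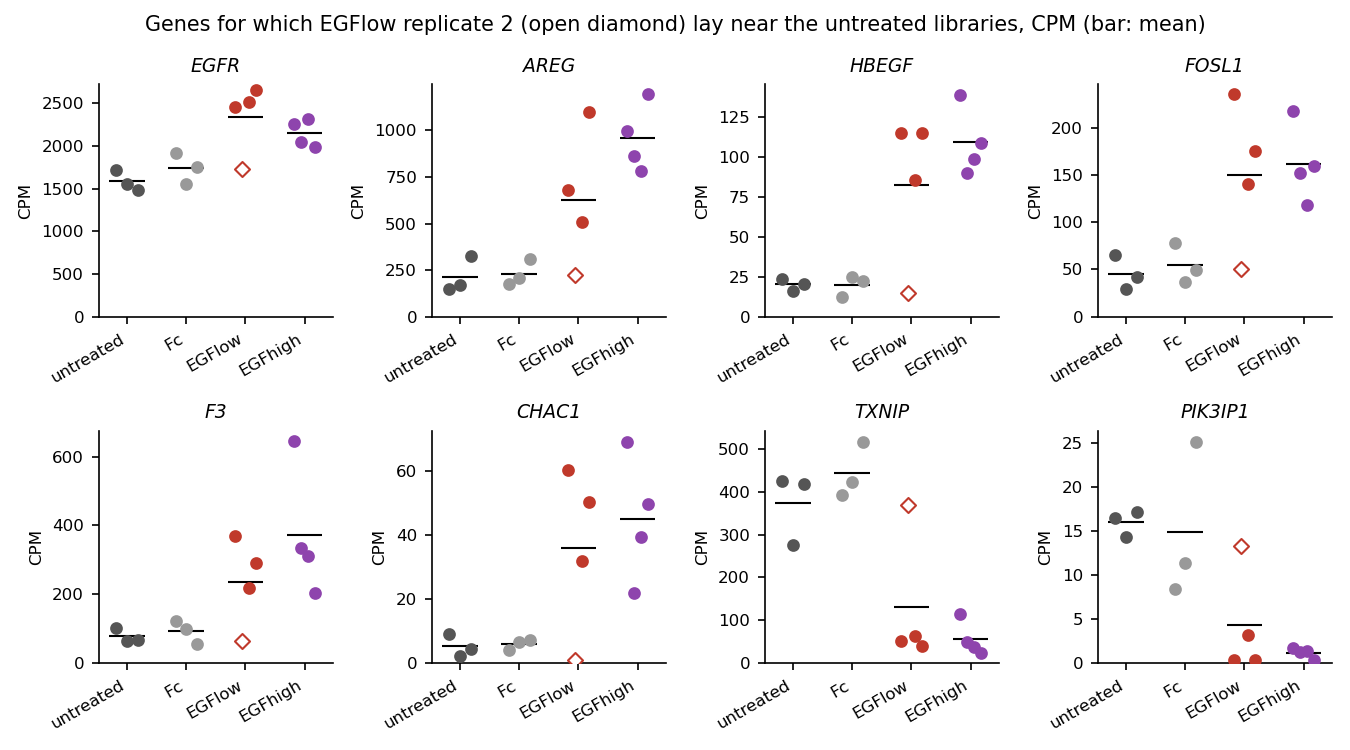
CPM in each library at 6 h for 8 genes, in untreated cells, Fc, EGFlow, and EGFhigh, with points for libraries, bars for means, and an open diamond for EGFlow replicate 2. The genes were chosen after their values had been seen because the diamond lies near the untreated points, as for HBEGF at 14.8 CPM, while the other EGFlow libraries lie with the EGFhigh libraries.

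The same library set the result for other genes that were no DEGs with all libraries and were DEGs without it. FOSL1, an AP-1 subunit, had 28.9 to 64.8 CPM in untreated libraries, a value inside that range in EGFlow replicate 2, and 235, 141, and 175 CPM in replicates 1, 3, and 4. Its log2FC was 1.74 with all libraries (adjusted p = 0.103) and 2.04 without replicate 2 (adjusted p = 0.0426). CHAC1, a glutathione-degrading enzyme of the amino acid stress response, had 1.17 CPM in replicate 2, 31.9 to 60.4 CPM in the other treated libraries, and 2.16 to 9.21 CPM in untreated cells. TXNIP, a glucose-regulated arrestin that limits glucose uptake, had 425, 276, and 418 CPM in untreated cells and 52.9, 369, 63.7, and 40.0 CPM in EGFlow replicates 1 to 4. PIK3IP1, an inhibitor of PI3 kinase, had 13.3 CPM in replicate 2, 0.33 to 3.18 CPM in the other treated libraries, and 14.4 to 17.1 CPM in untreated cells. Without replicate 2 the log2FC was -2.83 ± 0.49 for TXNIP and -3.65 ± 0.64 for PIK3IP1, both with an adjusted p of 0.00157.

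Immediate-early genes included no gene that rose at 6 h and 2 that fell in the main fit. Of 28 immediate-early and AP-1 factors tested, ATF3 and EGR1 fell and none rose, against 0.684% and 0.814% of all genes, with a list median of 0.05. The list held 3 DEGs without EGFlow replicate 2 (1 higher and 2 lower) and 1, which was lower, without any 1 of the other libraries. With the replicate number as a block 1 rose and 3 fell. With only the compared groups, or without a filter, 1 rose and 4 fell. Against untreated and Fc cells together 2 rose and 5 fell. ATF3, a stress-responsive AP-1 partner, had 112, 82.4, and 90.8 CPM in untreated and 23.9, 14.6, 21.6, and 32.2 CPM in treated libraries. All 4 treated libraries were well below the untreated ones, and it fell by 2.05 ± 0.41 (adjusted p = 0.00553). EGR1, a zinc finger factor induced by ERK and SRF, had 652, 483, and 602 CPM without and 240, 299, 174, and 298 CPM with EGFlow. The groups did not overlap, and EGR1 fell by 1.19 ± 0.31 (adjusted p = 0.0383). Its call was kept in 1 of the 7 fits that leave out a library, and with Fc-treated cells as the control its log2FC was -0.90 with an adjusted p of 0.12.

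The EGR1 promoter is shown because it holds a pair of CArG boxes (capitals) in the window that in 1.07% of all promoters held any.

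EGR1, chr5:138465229-138465528, plus strand: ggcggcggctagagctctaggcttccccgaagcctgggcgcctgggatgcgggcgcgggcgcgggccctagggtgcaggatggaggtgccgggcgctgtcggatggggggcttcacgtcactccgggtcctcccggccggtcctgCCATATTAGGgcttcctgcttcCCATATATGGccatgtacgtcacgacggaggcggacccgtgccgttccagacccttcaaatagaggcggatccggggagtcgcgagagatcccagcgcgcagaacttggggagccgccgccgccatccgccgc

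FOS and FOSB had log2FC of -1.76 and -1.15 with adjusted p of 0.123 and 0.133. FOS was at 43.3 to 141 CPM in untreated cells and at 13.9 to 49.4 CPM in treated ones, where replicate 2 was again the library nearest to untreated cells. JUN, JUNB, and MYC had log2FC of -0.18, -0.13, and 0.32. MYC spread from 4.32 to 31.8 CPM among untreated and from 3.85 to 25.9 CPM among treated libraries.

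Feedback genes of the ERK pathway, which are common readouts of its activity, showed no DEG. Of 26 tested, edgeR called 0, 4 had an unadjusted p under 0.05, and DESeq2 called 1, with a list median of 0.13. DUSP6, the phosphatase of ERK, had 137, 101, and 139 CPM without and 131, 152, 136, and 177 CPM with EGFlow (log2FC 0.25 ± 0.30). The groups overlapped. DUSP4 and DUSP5 had log2FC of 0.33 and 0.29, each with its lowest treated value, 82.0 and 53.4 CPM, in replicate 2. Cyclin D1 (CCND1), which drives entry into the cycle, had 409, 367, and 341 CPM in untreated cells and 682, 502, 589, and 597 CPM in EGFlow libraries. Those groups did not overlap, but the log2FC of 0.67 ± 0.21 missed the threshold (adjusted p = 0.0904).

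Genes of ribosome biogenesis, which build ribosomal subunits in the nucleolus, gave 14 of the 22 DEGs that rose on the 20 gene lists. Of 107 tested, 14 rose (13.1%) and none fell, against 0.814% and 0.684% of all genes, and 103 had a log2FC above 0, with a median of 0.52. The 14 were 8 of 40 small-subunit factors (median 0.61), 5 of 43 large-subunit factors (median 0.52), and DKC1 of 13 nucleolar and snoRNP genes. Of 11 genes of RNA polymerase I none was called, 3 had an unadjusted p under 0.05, and the highest log2FC was 0.92. The summed level of the list was 10592 to 13683 CPM in untreated and 15934 to 17538 CPM in EGFlow libraries, without overlap.

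DDX21, an RNA helicase that acts on pre-ribosomal RNA, had 499, 563, and 315 CPM without and 1108, 756, 993, and 1220 CPM with EGFlow. It rose 2.22-fold (log2FC 1.15 ± 0.26, adjusted p = 0.0176). RRP9, a protein of the U3 snoRNP, had 21.6, 17.8, and 21.5 CPM in untreated cells and 45.3, 47.3, 52.4, and 55.1 CPM in treated ones. RRP9 varied little within groups, replicate 2 included, and rose by 1.30 ± 0.25 (adjusted p = 0.00532). BYSL, a small-subunit assembly factor, rose by 1.25 ± 0.26 from 22.2 ± 4.44 to 52.9 ± 4.31 CPM. Further small-subunit factors that rose were TSR1, PNO1, NOL6, UTP20, WDR3, and the kinase RIOK1, with log2FC from 0.93 to 1.28. The large-subunit factors NOP16, NIFK, GTPBP4, and RPF1 rose by 0.69 to 1.16, and DKC1, the pseudouridine synthase of snoRNPs, rose by 0.77.

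How many of these genes passed depended on single libraries. The count was 17 without EGFlow replicate 2, but 1 without untreated replicate 4 and 2 without untreated replicate 1, and between 4 and 11 without one of the others. With Fc-treated cells as control it was 30. RRP9 was a DEG in all of these settings, while RPF1 was not a DEG when any single library was left out, and NOL6 was not one against Fc-treated cells (log2FC 1.10, adjusted p = 0.0634).

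The RRP9 promoter is shown for its E-box (capitals), the motif bound by MYC and related factors, which 29 of 86 promoters on the ribosome list held (33.7%), and 9.97% of all.

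RRP9, chr3:51941855-51942154, minus strand: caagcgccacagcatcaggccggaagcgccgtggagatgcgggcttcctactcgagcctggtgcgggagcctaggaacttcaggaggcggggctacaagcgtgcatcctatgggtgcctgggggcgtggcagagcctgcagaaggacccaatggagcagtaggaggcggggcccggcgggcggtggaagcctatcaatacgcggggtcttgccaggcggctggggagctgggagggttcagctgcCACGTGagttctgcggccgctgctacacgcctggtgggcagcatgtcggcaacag

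Of the 14 ribosome genes that rose, 5 held the E-box (35.7%). The E-box was not the only motif with a larger share on this list. The ETS motif was in 20 of 86 promoters (23.3%) and in 4 of the 14 (28.6%), against 8.8% of all. AP-1 motifs were in 1 of 86 promoters of the list (1.16%).

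**Figure D3:**
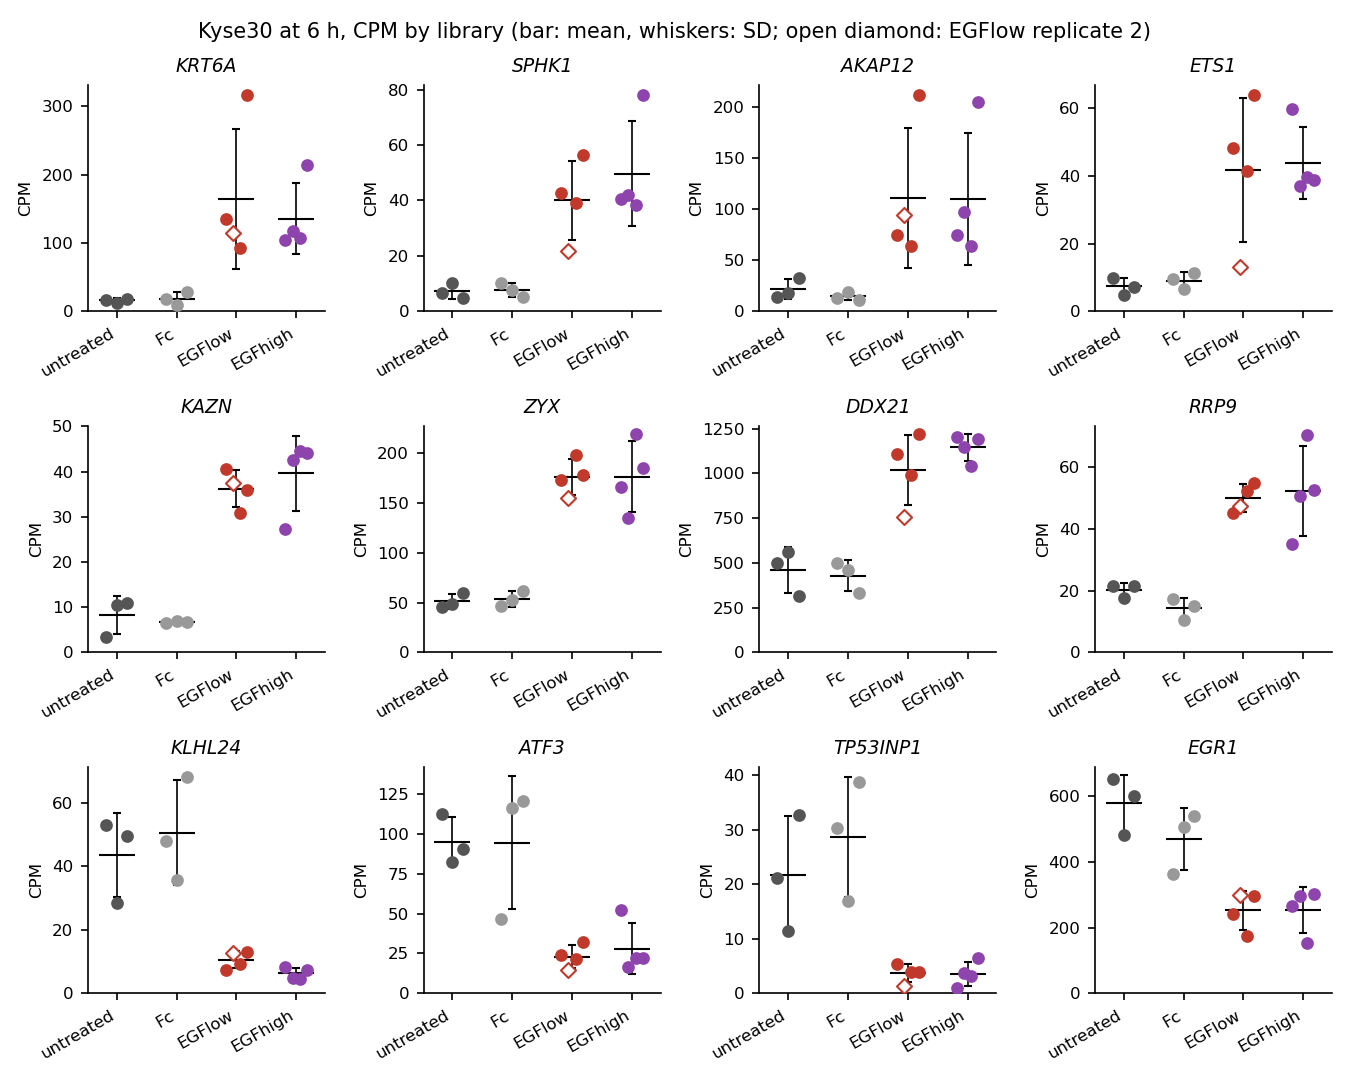
CPM in each library at 6 h for 12 genes, in untreated cells (n = 3), Fc (n = 3), EGFlow (n = 4), and EGFhigh (n = 4), with points for libraries, bars and whiskers for mean and SD, and an open diamond for EGFlow replicate 2. EGFlow and EGFhigh points lie above untreated and Fc points for the first 8 genes, such as ZYX at 155 to 199 against 45.4 to 59.3 CPM, and below them for KLHL24, ATF3, TP53INP1, and EGR1, except that 1 EGFhigh library (52.0 CPM) was above 1 Fc library (46.7 CPM) for ATF3.

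Genes of nucleotide, one-carbon, and polyamine synthesis included 2 DEGs of 28 tested, both of which rose (all genes 0.814%), with a list median of 0.19. The list held no DEG without untreated replicate 1 or 4 or EGFlow replicate 3 or 4, and 1 without untreated replicate 3 or EGFlow replicate 1. PRPS1, which makes the ribose phosphate of all nucleotides, rose 2.03-fold from 19.6 ± 7.63 to 39.9 ± 2.11 CPM. UMPS, the last enzyme of pyrimidine synthesis, rose 1.84-fold from 42.9 ± 5.36 to 79.2 ± 9.85 CPM, a call kept only without EGFlow replicate 1 when single libraries were left out. Neither was a DEG against Fc-treated cells, with log2FC of 0.41 for PRPS1 (adjusted p = 0.477) and 0.71 for UMPS (adjusted p = 0.0721). MTHFD2, a mitochondrial one-carbon enzyme, had 77.2 CPM in EGFlow replicate 2 and 258 to 289 CPM in the other treated libraries, against 65.9 to 102 CPM in untreated cells (log2FC 1.52, adjusted p = 0.0769). It was a DEG without that library (log2FC 1.82, adjusted p = 0.0227).

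Integrin α6β4, the receptor of hemidesmosomes, which anchor basal cells to the matrix, had 1 chain that rose. ITGA6, the integrin chain that pairs with ITGB4, rose 1.58-fold, with 500 to 724 CPM without and 816 to 1177 CPM with EGFlow (log2FC 0.66 ± 0.16, adjusted p = 0.0266). Its call was kept in 3 of the 7 fits that leave out a library (adjusted p up to 0.169). With Fc-treated cells as control its log2FC was 0.44 (adjusted p = 0.142). The partner ITGB4 had 912, 1116, and 1419 CPM in untreated and 829, 838, 884, and 1181 CPM in treated libraries, which overlapped (log2FC -0.30 ± 0.28, adjusted p = 0.719).

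A wider list of integrins, focal adhesion proteins, and actin regulators, written after the values had been seen, held 15 DEGs of 62 tested, all of which rose, against 0.814% of all genes. It is a description, and the list median was 0.36. Its members were 3 of 10 integrins, 3 of 18 focal adhesion proteins, and 9 of 34 actin genes. ZYX (zyxin, which gathers at strained actin cables) had 45.4, 49.1, and 59.3 CPM in untreated cells and 173, 155, 199, and 179 CPM in EGFlow libraries. It rose 3.44-fold (log2FC 1.78 ± 0.30, adjusted p = 0.00203) and remained a DEG without any 1 of the 7 libraries. ITGA2 and ITGB1, the chains of a collagen receptor, rose 2-fold and 1.83-fold.

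Further genes of this list that rose were the focal adhesion members VCL and SDC4, a membrane proteoglycan, and the actin genes TPM4, ACTN1, MYO1E, SPIRE1, INF2, ARPC5L, and EZR, by log2FC of 0.76 to 1.32. ACTG1, gamma-actin, was the most abundant DEG, with 5683, 4568, and 4956 CPM without and 9543, 7558, 9443, and 10070 CPM with EGFlow. It rose by 0.85 ± 0.19 (adjusted p = 0.0168), and its many pseudogenes make its count uncertain. The number of DEGs in this list was 16 without EGFlow replicate 2, 9, 8, and 3 without untreated replicates 1, 3, and 4, and 11 to 14 without one of the other EGFlow libraries.

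Keratinocyte genes included 3 DEGs of 20 tested, all of which rose (all genes 0.814%), with a list median of 0.50. The count was 0 without untreated replicate 4, 1 without untreated replicate 1 or 3 or EGFlow replicate 1, 2 without EGFlow replicate 3 or 4, and 4 without EGFlow replicate 2. Beside KRT6A these were the cornified envelope genes SPRR1B and SPRR2A. SPRR1B had 44.0, 28.5, and 30.9 CPM without and 102, 112, 81.3, and 111 CPM with EGFlow, and rose by 1.56 ± 0.40 (adjusted p = 0.0343). It was no DEG against Fc-treated cells (log2FC 1.30, adjusted p = 0.0651). SPRR2A, one of a family of near-identical genes whose counts are uncertain, rose by 3.05 ± 0.78 from 1.47 ± 0.73 to 12.6 ± 5.49 CPM. KRT16 and KRT17, which accompany KRT6A in activated epidermis, had log2FC of 1.89 and 1.81 with groups that did not overlap, but adjusted p of 0.0504 and 0.0765. KRT13, a keratin of inner mucosa, had 1272 CPM in EGFlow replicate 2, 277 to 516 CPM in the other treated libraries, and 159 to 261 CPM in untreated cells (log2FC 1.62 ± 0.70, adjusted p = 0.28).

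Of 22 genes of EMT (epithelial-to-mesenchymal transition) and epithelial adhesion, 1 was a DEG (4.55%, all genes 1.5%). ESRP1, a splicing factor that maintains epithelial isoforms, had 217, 240, and 246 CPM in untreated and 138, 117, 122, and 152 CPM in EGFlow libraries. It fell by 0.82 ± 0.20 (adjusted p = 0.0282), with separate groups, but was a DEG in only 1 of the 7 fits that leave out a library, the one without EGFlow replicate 4 (adjusted p up to 0.142 in the others). GRHL2, another guardian of the epithelial state, had 51.9 to 69.7 CPM without and 33.0 to 43.3 CPM with EGFlow (log2FC -0.76 ± 0.24, adjusted p = 0.105). The mesenchymal genes VIM, FN1, SNAI2, and ZEB1 had log2FC of -0.15, 0.06, 0.54, and 0.09, and the adhesion genes CDH1 and EPCAM 0.38 and -0.01, with overlapping groups for all of them.

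**Figure D4:**
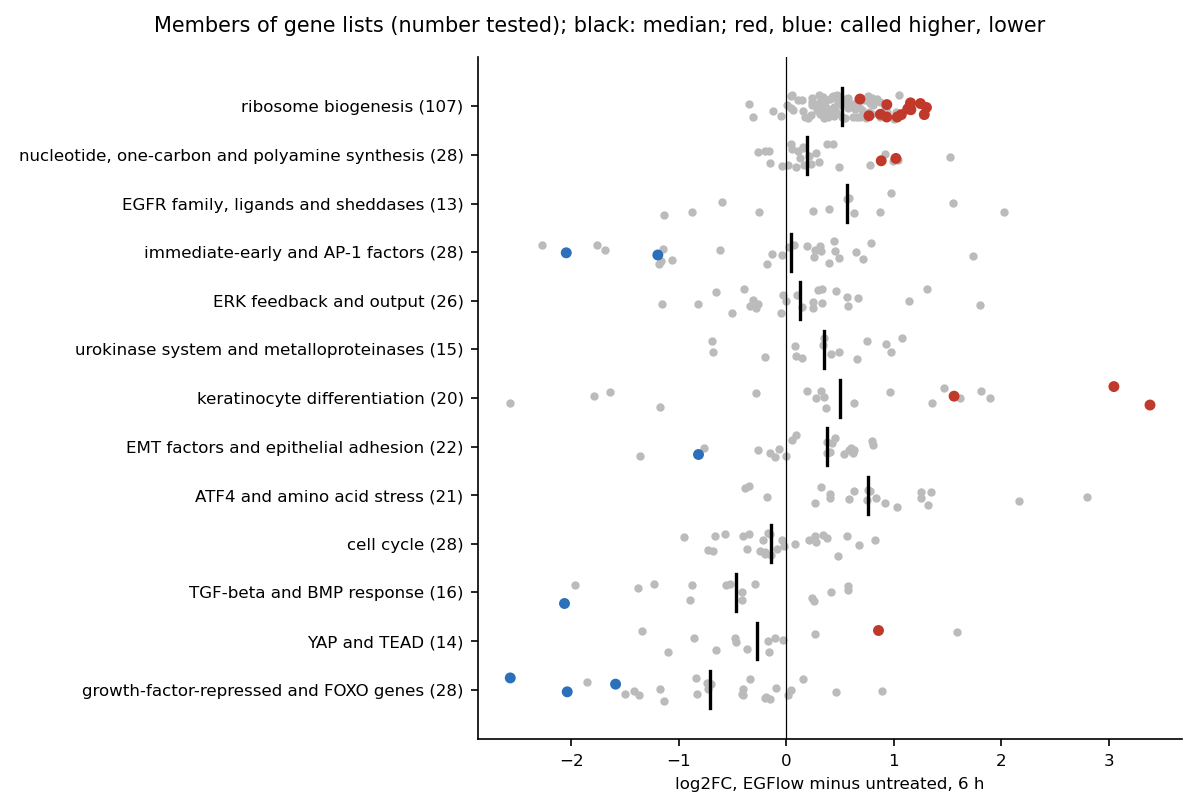
Log2FC of EGFlow minus untreated cells at 6 h for the tested members of 13 gene lists, with a black bar at each list's median and DEGs in red (higher) or blue (lower). The ribosome biogenesis members lie mostly right of 0, with 14 red points, and the list of growth-factor-repressed and FOXO genes mostly left of 0, with 3 blue points.

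Genes repressed by growth factors, among them FOXO targets, held 3 DEGs of 28 tested, all of which fell (all genes 0.684%), with a list median of -0.71 and 5 members above 0. KLHL24, an adaptor of a ubiquitin ligase for keratin, had 52.8, 28.4, and 49.5 CPM in untreated and 7.47, 12.6, 9.20, and 13.1 CPM in EGFlow libraries. It fell 4.11-fold (log2FC -2.04 ± 0.34, adjusted p = 0.00203) and remained a DEG without any 1 library. TP53INP1, a stress and autophagy gene, had 21.2, 11.4, and 32.7 CPM without and 5.44, 1.40, 3.85, and 3.98 CPM with EGFlow, and fell 5.93-fold (adjusted p = 0.00645). YPEL3, a growth-arrest gene, fell 3.01-fold, from 81.9 ± 27.9 to 27.2 ± 6.10 CPM. FOXO1, CCNG2, and BTG2 had log2FC of -0.73, -1.41, and -1.37 with separate groups and adjusted p of 0.201, 0.157, and 0.255. The list held 7 DEGs without EGFlow replicate 2, with TXNIP, PIK3IP1, BCL6, and TOB1 added, 1 without untreated replicate 4, and 2 without EGFlow replicate 1 or 4.

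Other genes that fell were transcription factors and signalling genes. FGD3, an activator of the small GTPase CDC42, had 20.2, 5.76, and 7.86 CPM in untreated and 1.39, 0.23, 0.33, and 0.17 CPM in EGFlow libraries. It had the lowest log2FC among genes of at least 5 CPM with separate groups (-4.30 ± 0.83, adjusted p = 0.00532), a 19.7-fold fall that rests on few counts in treated cells. ID2, an inhibitor of helix-loop-helix factors, had 13.4, 12.5, and 30.3 CPM without and 4.30, 1.98, 8.53, and 3.32 CPM with EGFlow, and fell 4.2-fold (adjusted p = 0.0437). That call was kept only without EGFlow replicate 3, with an adjusted p of up to 0.324 when another library was left out. Of 16 genes of the TGF-beta and BMP response ID2 was the only DEG (6.25%, all genes 1.5%). Its relatives ID1, ID3, and ID4 had log2FC of -0.90, -0.52, and -1.23 with adjusted p of 0.257, 0.647, and 0.231. SATB1, a chromatin organiser, and the zinc finger genes ZBTB20 and ZBTB37 fell 4.1-fold, 2.9-fold, and 3.36-fold.

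NEURL1B, TESK2, TRIM66, NCAM2, RPARP-AS1, and TTC23, the rest of the 15 genes with the lowest log2FC, fell 2.87-fold to 4.2-fold. Against Fc-treated cells NEURL1B, TRIM66, NCAM2, TTC23, and ZBTB37 were no DEGs, with adjusted p of 0.0857, 0.0753, 0.166, 0.43, and 0.0958, and TTC23 had a log2FC of -0.70. When single libraries were left out, TTC23 and ZBTB20 kept their call in none of 7 fits and NCAM2 and SATB1 in 1. RPARP-AS1 is an antisense gene, and without a stated strand setting its reads cannot be told from those of its partner. A further 7 genes that fell (MAK, SHC2, MORN3, CAVIN2, ZNF467, AC011294.1, and WWTR1-IT1) had no counts in any EGFlow library. Against a floor of 3 counts over the 4 libraries (0.103 CPM, counting error only) MAK was at least 15.8-fold lower and MORN3 at least 22-fold lower, from untreated means of 1.63 and 2.27 CPM.

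The cell cycle list held no DEG in the main fit and 2, which fell, with the replicate number as a block. Its medians differed by phase. Of 28 tested, edgeR called 0, 7 had an unadjusted p under 0.05, and DESeq2 called 1. All 8 genes of G2 and mitosis had a log2FC below 0, with a median of -0.62, against 0.34 for 11 G1 regulators and -0.14 for 9 S phase genes. TOP2A, the topoisomerase that untangles replicated DNA, had 887, 1620, and 1000 CPM in untreated and 640, 705, 565, and 501 CPM in EGFlow libraries (log2FC -0.96 ± 0.27, adjusted p = 0.0593). A list of 52 mitotic spindle and kinetochore genes was also written after the values had been seen and is a description. It had a median of -0.56 and 4 members above 0, against 46.3% of all genes. Of its members 6 fell and none rose, against 0.684% and 0.814% of all genes.

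CDC25C, the phosphatase that starts mitosis, had 56.7, 48.6, and 58.4 CPM without and 15.6, 19.0, 26.6, and 20.1 CPM with EGFlow, and fell 2.69-fold (log2FC -1.43 ± 0.31, adjusted p = 0.0107). CENPF, ASPM, KIF20A, CKAP2, and CENPC, which serve the spindle and the centromere, fell 2.06-fold to 2.6-fold. The count of 6 fell to 0 or 1 when any library other than EGFlow replicate 2 was left out. These are levels in cell populations, in which fewer cells of a type or phase and less RNA per cell cannot be told apart.

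Further lists gave few or no DEGs. WWTR1, which encodes the YAP relative TAZ, rose by 0.86 ± 0.22 (adjusted p = 0.0297) from 96.1 ± 23.3 to 174 ± 7.36 CPM. It was the only DEG of 14 YAP and TEAD genes (7.14%, all genes 1.5%), and was a DEG in 2 of the 7 fits that leave out a library. The YAP targets CTGF, CYR61, and ANKRD1 had log2FC of -1.34, -0.86, and -1.10 (adjusted p from 0.201 to 0.62), while F3, tissue factor, had 1.59 (adjusted p = 0.123) and 1.91 without EGFlow replicate 2 (adjusted p = 0.0424). Of 21 genes of ATF4 and amino acid stress edgeR and DESeq2 both called 0, 8 had an unadjusted p under 0.05, and the median was 0.76. That 0 depended on the setting. EdgeR called 8 without a filter, 3 with only the compared groups, and 3 with untreated and Fc cells together, all higher. It called 1 with the replicate number as a block, 1 with Fc as control, and 1 without EGFlow replicate 2, also higher. Both tools called 0 of 15 genes of the urokinase system and metalloproteinases, with 2 at an unadjusted p under 0.05 and a log2FC of 1.08 for the urokinase receptor gene PLAUR (adjusted p = 0.534). Both also called 0 of 25 sterol and fatty acid genes, 20 interferon genes, 12 cytokines, 10 squamous markers, and 4 markers of other cell types, with 3, 3, 1, 1, and 0 at an unadjusted p under 0.05. Of 24 glycolysis and hypoxia genes edgeR called 0 and DESeq2 1, with 6 at an unadjusted p under 0.05.

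Cells given 9 nM EGF for 6 h were compared with EGFlow cells to ask whether the dose mattered. EdgeR called 0 of 15350 genes (0%), 435 had an unadjusted p under 0.05, and DESeq2 called 0. This comparison shares the EGFlow libraries with the main one, so values are given side by side. Among the genes that rose with EGFlow, the log2FC of EGFhigh minus EGFlow ran from -0.43 to 0.77 with a median of 0.01, and none had an unadjusted p under 0.05. Among those that fell it ran from -0.77 to 5.55, the latter for MAK, whose fitted value depends on the prior count since EGFlow had no counts of it, with a median of 0.11, and 11 had an unadjusted p under 0.05. KRT6A had 136 ± 52.4 CPM with EGFhigh and 165 ± 103 CPM with EGFlow, a log2FC of -0.28 ± 0.53. ZYX had 177 ± 35.5 and 176 ± 17.8 CPM, a difference of 0.00 ± 0.26 on the log2 scale. AREG had 957 ± 181 and 626 ± 366 CPM (0.61 ± 0.38), TXNIP 56.7 ± 40.0 and 131 ± 159 CPM (-1.24 ± 0.50), and PIK3IP1 1.16 ± 0.58 and 4.30 ± 6.14 CPM (-2.05 ± 0.72). The EGFlow SDs of these 3 genes include replicate 2.

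The control groups of 6 h, Fc and untreated cells, did not yield a DEG when set against each other (0 of 15350 genes, 0%, in edgeR, and 0 in DESeq2). An unadjusted p under 0.05 was found for 435 genes. EGR1 had 471 CPM with Fc and 579 CPM untreated, ATF3 94.6 and 95.1 CPM, and KLHL24 50.5 and 43.6 CPM. With Fc libraries in place of untreated ones there were 346 DEGs, and 38 of the 52 genes named by rule were among them.

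After 72 h of EGFlow no gene was a DEG. Against untreated cells of 72 h, edgeR called 0 of 15350 genes (0%), 439 had an unadjusted p under 0.05, and DESeq2 called 0. Of the 125 genes that rose at 6 h, 63 had a log2FC above 0 at 72 h (50.4%, all genes 50.5%), with a median of 0.00. Of the 105 that fell, 51 were below 0 (48.6%, all genes 49.5%), with a median of 0.02. ZYX had 49.4 CPM untreated and 65.8 CPM with EGFlow at 72 h, and DDX21 356 and 396 CPM.

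KRT6A had 8.47, 8.01, and 15.3 CPM in untreated and 6.57, 20.45, 11.3, and 126 CPM in EGFlow libraries of 72 h (log2FC 1.98), so that the groups overlapped and 1 treated library set the mean. SPRR1B had means of 9.62 and 26.2 CPM (log2FC 1.46), with 1 treated library below every untreated one and the others at 20.6 to 44.5 CPM, and neither gene was a DEG. Untreated levels had themselves moved. ATF3 had 95.1 CPM in untreated cells at 6 h and 483 CPM at 72 h, and EGR1 579 and 1338 CPM, with 479 and 1395 CPM under EGFlow at 72 h. The test of the difference between the responses at 6 and 72 h gave 0 DEGs in edgeR (0% of 15350; lowest adjusted p = 0.17), 1229 genes at an unadjusted p under 0.05, and 43 DEGs with DESeq2. At an unadjusted p under 0.05 it held 113 of the 125 genes that rose at 6 h and 94 of the 105 that fell, and these genes had been chosen by the 6 h values that enter it.

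**Figure D5:**
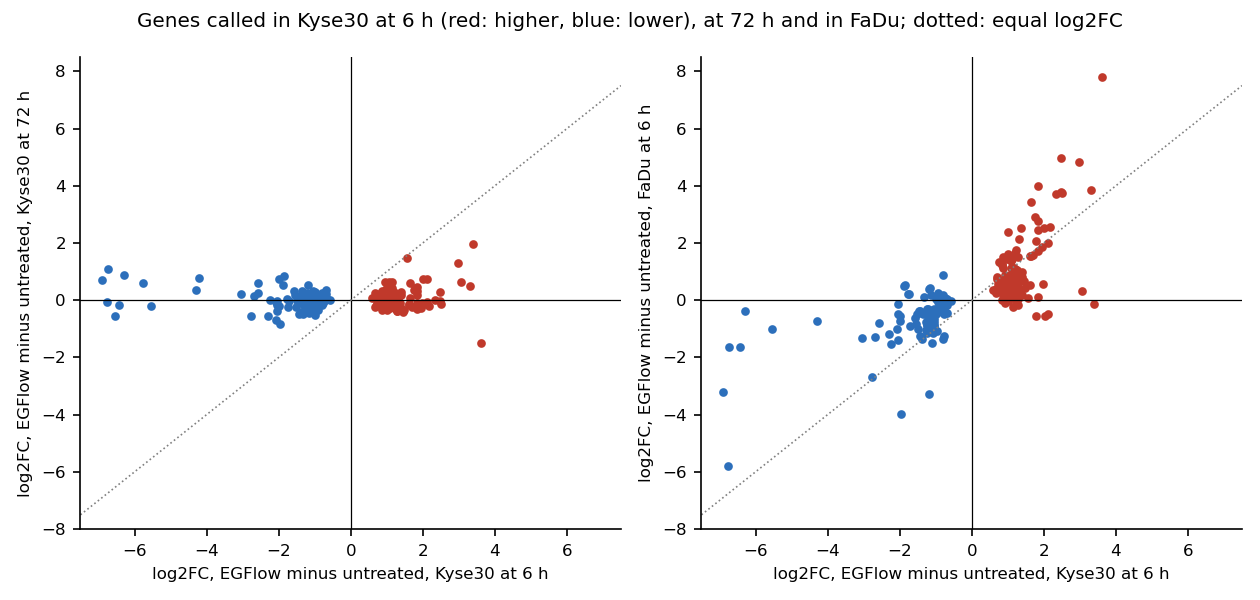
Log2FC of EGFlow minus untreated cells for the Kyse30 DEGs of 6 h (horizontal axis) against their log2FC in Kyse30 at 72 h (left) and in FaDu at 6 h (right), with a dotted line at equal values. At 72 h the points lie around 0, while in FaDu 116 of 125 red points lie above 0 and 86 of 100 blue points below it.

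FaDu libraries of the same dose and time share no sample with those of Kyse30 and gave a view of the same genes in another line. FaDu replicates 3 and 4 were used (2 treated and 2 untreated libraries), because replicates 1 and 2 under that label stood apart in earlier work on these files. Of 16022 genes, 409 rose (2.55%) and 144 fell (0.899%). Of the 125 genes that rose in Kyse30, 51 rose in FaDu as well (40.8% of them and 12.7% of the 402 FaDu genes tested in both), none fell, and 116 had a log2FC above 0 (92.8%, all genes 48.6%). Of 100 genes that fell in Kyse30 and were tested in FaDu, 9 fell there (9% of them and 6.34% of 142), and 86 were below 0 (86%, all genes 51.1%).

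Single genes differed in size between the lines, and no test of the difference between lines was run. SPHK1, SPOCD1, ETS1, GLIPR1, and AKAP12 rose in FaDu by log2FC of 3.70 to 4.96, with adjusted p from 4.54e-06 to 0.0022. ZYX rose by 2.08 and ITGA2 by 2.38. KRT6A, which rose 10.4-fold in Kyse30, had a log2FC of -0.12 in FaDu (adjusted p = 0.943), and ATF3 had -0.13 (adjusted p = 0.965). Ligand genes whose Kyse30 change missed the threshold rose in FaDu, AREG by 3.55, HBEGF by 3.47, and EREG by 4.39. Of the ribosome list 8 of 107 genes rose in FaDu and of the wider adhesion and actin list 28 of 62, against 2.55% of all FaDu genes. Of the spindle list 6 of 52 fell, against 0.899% of all.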

How the data were processed

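QuantSeq 3′ FWD libraries of Kyse30 cells were used, 43 in the fit and 7 in the main comparison. For each library the authors deposited counts of reads per gene from HTSeq, as whole numbers after alignment with STAR to GRCh38, per the labels. Versions, annotation, strand setting, and use of molecular identifiers are not given in the sources used here. Tallies of reads without a gene were left out, and symbols were taken from GENCODE release 29 for 58275 of 58395 identifiers.

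Counts were filtered with filterByExpr (minimum count 10, minimum total 15), scaled by TMM, and tested with edgeR 4.0.16 in R 4.3.3 (limma 3.58.1), with group as the only term and Benjamini-Hochberg adjustment. CPM values use TMM library sizes. The SE of a log2FC was computed from the test, as the size of the log2FC divided by the square root of its F statistic. FaDu replicates 3 and 4 (20 libraries) were fitted separately. The code was tested on simulated data.

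The genes named by rule were the 15 highest and 15 lowest log2FC among DEGs with separate groups and at least 5 CPM, and every DEG on 20 gene lists. A result for 1 of these genes is not reported here. Members and lists were chosen with earlier results of these data known, and 2 further lists after the values had been seen. Alternatives were DESeq2 1.42.0, RLE factors, other filters, only the compared groups, a replicate block, other controls, and leaving out each library.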

Additional observations from a re-analysis of the deposited data

Results flagged for a closer look

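In 3 of the 52 genes named by rule, 1 EGFlow library at 6 h lay far from the other 3. The gap was beyond Dixon's 95% critical value for 4 samples, which chance exceeds in about 1 of 20 groups. FOXD1 had 48.7 CPM in replicate 2 and 151 to 164 CPM in the others, a gap of 0.884 of the range. TSR1 had 130 CPM in replicate 4 and 161 to 165 CPM in the others, a gap of 0.876. FGD3 had 1.39 CPM in replicate 1 and 0.17 to 0.33 CPM in the others, a gap of 0.863.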

How the results depend on the processing

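The count of 230 DEGs became 413 with DESeq2, 399 without a filter, 359 with only the compared groups in the fit (262 higher and 97 lower), 346 with Fc as control (214 and 132), and 752 with untreated and Fc cells together, and 20 to 268 when single libraries were left out (76, 87, and 20 without untreated replicates 1, 3, and 4, and 82, 268, 108, and 91 without EGFlow replicates 1 to 4). With the replicate number as a replicate block it was 417. The main fit does not use the number, and the labels do not say what it marks. Same-numbered libraries had correlated deviations of 0.09, 0.01, and 0.14, and 2 of the 3 were the highest for both of their libraries. Mitochondrial counts also differed by number, so a pairing or batch that the main count ignores remains possible. Of the 52 genes named by rule none lost its call under the block. Without a filter, EGFhigh against EGFlow gave 7 DEGs, EGFlow at 72 h gave 6, and Fc against untreated cells gave 1. The difference between the responses at 6 and 72 h gave 43 DEGs with DESeq2, 77 without a filter, 18 with the block, 3 with only the compared groups, and 0 to 11 without single libraries (2 without untreated replicate 1 and 11 without EGFlow replicate 2, both of 6 h). FaDu gave 192 to 398 without single libraries (192 and 275 without untreated replicates 3 and 4, and 220 without EGFlow replicate 4), against 553, and a lone remaining library there is assumed to vary like the other groups. The cause of these changes was not tested. No named gene that was a DEG changed direction under any of these alternatives. With 3 untreated libraries, genes at a few CPM are limited by depth.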
